A study of Drosophila melanogaster with 4 samples.

Results

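Expression of 7 genes of fatty acid metabolism and lipid carriage was examined in heads of male Drosophila melanogaster fed sodium valproate (NaVP) and compared with heads of males on normal food (NF). The genes are yip2, CG4860 and CG8778 of beta-oxidation, FASN1 of fatty acid synthesis, AcCoAS of acyl activation, and the lipid carriers apolpp and Npc2a. They were chosen by function and by having a cDNA clone with a value on 3 or more arrays, with earlier results of these data known. The means and adjusted p-values below therefore describe these genes and are no independent evidence about the pathway. The 7 genes have 9 clones on the array, and 8 of these, covering all 7 genes, reached 3 arrays. Across the whole series 1030 clones did so, 554 of them with a gene symbol (524 genes).

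Both groups were unmated males of the wild type strain Oregon R, with no transgene or mutation. They were 10 to 11 days old when NaVP males were moved for 3 days to food with 0.33 mg/ml NaVP and NF males to fresh normal food. Vials held 30 flies each, and RNA came from pooled whole heads, so brain, eye, fat body, muscle and cuticle are mixed. In pooled heads, fewer cells of a type and less RNA per cell cannot be told apart. Each of 4 arrays set an NaVP pool against an NF pool as a 2-colour ratio, and the design text calls these biological replicates. The NaVP pool was labelled with Cy5 for arrays 1 and 2, and the dyes were exchanged for arrays 3 and 4.

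Beta-oxidation removes carbon units from fatty acids in mitochondria by repeated dehydrogenation, hydration, dehydrogenation and thiolytic cleavage. Fatty acids enter it as esters of coenzyme A. Fatty acid synthase builds long-chain fatty acids from acetyl-CoA and malonyl-CoA, mainly in the fat body of insects. Lipids travel in insect blood on lipophorin, and sterols leave lysosomes with the help of NPC proteins. Valproate is itself a short branched fatty acid, which in mammals is joined to coenzyme A and to carnitine and is partly broken down by beta-oxidation.

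A value below is a log2 ratio, the mean of the 2 adjacent spots of a clone after the array median was subtracted. Base 2 is assumed, since the sources do not name the base. They also do not say whether values run Cy5 over Cy3 on every array or already NaVP over NF. Results are therefore given for the swap arrays (3 and 4) turned in sign and for the swap arrays as deposited. The turned reading takes the values in the channel order of the labels. Both readings take arrays 1 and 2 as NaVP over NF. The sample titles read NF-NaVP, and if the ratio ran the other way, every sign below would change. For a gene on all 4 arrays, the mean in one reading is the dye effect of the other.

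Of all spots, 4.78% to 18.9% had a value on an array. Array medians before centring were 1.01, 1.05, 0.54 and 0.24. Pearson's r as deposited was taken over shared clones that reached 3 arrays. It was 0.55 between arrays 1 and 2 and 0.39 between arrays 3 and 4. Across dye orientations it was -0.14 (arrays 1 and 3), 0.21 (1 and 4), 0.13 (2 and 3) and 0.34 (2 and 4). Which reading holds was not tested. The clones tested here had array medians of 0.05 to 0.07 after centring, since centring used all listed clones. Among head cell types, 3 of 8 photoreceptor markers (Arr1, inaC and inaD), 1 of 6 neuronal (Gad1), 1 of 5 glial (Gs2) and 1 of 12 fat body markers (Obp99b) reached 3 arrays. Many of the others are not on the array, and a ratio says nothing of a gene's level.

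Fitting only a mean with limma, no lipid gene clone passed an adjusted p of 0.05 in either reading (Benjamini-Hochberg over 1030 clones). With the swap arrays turned that is 0 of 8, where 0.0971% of all clones passed, and 1 of 8 had an unadjusted p under 0.05, where 6.89% of all did. Left as deposited it is 0 of 8 against 0.777%, and 4 of 8 were under 0.05 unadjusted against 14.1%. A one-class SAM statistic also called 0 of 8 in each reading. With dye orientation as a further coefficient, 0 of 8 passed with the swap arrays turned, against 3.11% of all clones. As deposited 2 of 8 passed, against 5.73%: yip2 was lower and Npc2a higher in NaVP heads. Those p-values lean on a spread pooled over clones, worth 76.4 degrees of freedom beside the 1 or 2 of the clone itself.

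**Figure D1:**
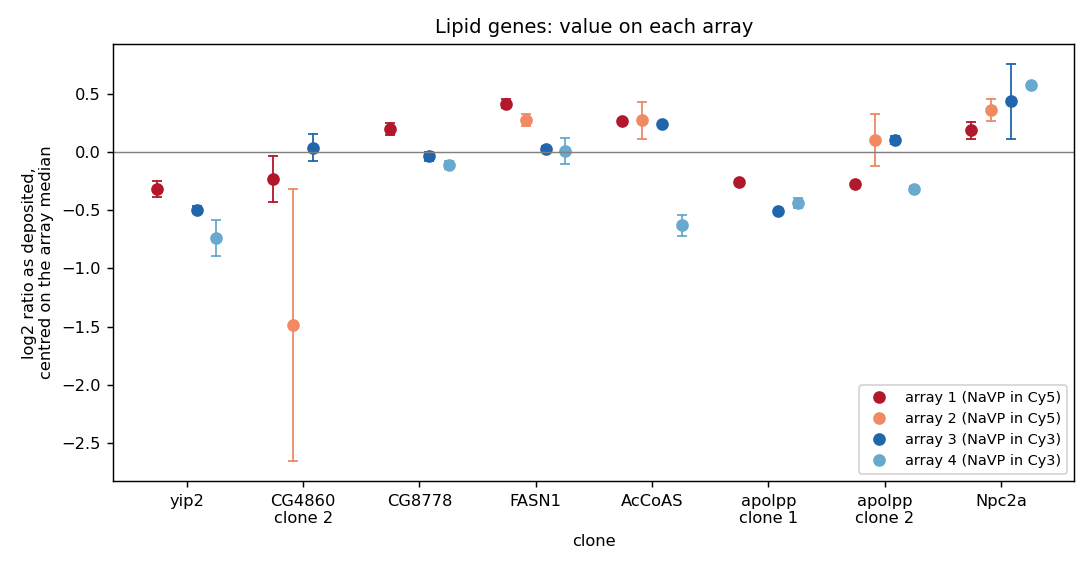
Centred log2 ratio as deposited (y axis) of each lipid gene clone (x axis). Large points are the 4 arrays, and the bar joins the 2 spots of the clone on that array. Npc2a lay above 0 on all 4 arrays (0.19 to 0.57), yip2 and apolpp clone 1 below 0 on the 3 arrays that list them, and the spots of CG4860 on array 2 differed by 2.34.

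The spots of a clone agreed closely for most lipid genes. Over 28 spot pairs the median difference was 0.09, and 2 pairs differed by over 0.5. Those 2 belonged to CG4860 on array 2 and to Npc2a on array 3.

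yip2 (NCBI gene 34313) encodes an acetyl-CoA acyltransferase, or thiolase, the enzyme of the last step of a beta-oxidation round. Its values as deposited were -0.32 on array 1, -0.49 on array 3 and -0.74 on array 4, with none listed on array 2. All 3 arrays lay below 0, and array 4 was the lowest. As deposited the mean was -0.52 ± 0.21 (SD, n = 3), a 1.43-fold lower level in NaVP heads with a 95% interval of -0.84 to -0.19 (limma adjusted p = 0.163). This was the 14th lowest mean of 1030 clones.

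With the dye coefficient, yip2 was lower as deposited by a log2 difference of -0.47 (interval -0.76 to -0.17, limma adjusted p = 0.0407), and this is the call counted above. With the swap arrays turned, arrays 3 and 4 opposed array 1, and the mean was 0.30 ± 0.55 (SD, n = 3; interval -0.16 to 0.77, limma adjusted p = 0.749). That turned mean was 0.62 without array 1, 0.21 without array 3 and 0.088 without array 4. The Cy5 orientation rests on array 1 alone for this gene. On array 1 the median of the clones in the same block of spots was -0.37, the lowest of 48 blocks there, and centring on that block put yip2 at 0.05 on array 1. On arrays 3 and 4 block centring left -0.52 and -0.56. The mean as deposited was then -0.34 ± 0.34 (SD, n = 3; limma adjusted p = 0.278). The part of slide position in the result beyond this was not tested.

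CG4860 (NCBI gene 41480) is annotated with the synonym ACADS, the human short-chain acyl-CoA dehydrogenase, which catalyses the opening step of beta-oxidation of short chains. Of its 2 clones, clone 1 had no value on any array. Clone 2 had -0.23, -1.49 and 0.04 on arrays 1, 2 and 3, with none on array 4. Array 2 stood far below the others, and on it the spots of the clone were at -2.66 and -0.32.

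The mean of CG4860 was -0.58 ± 0.79 with the swap arrays turned (SD, n = 3; interval -1.15 to -0.02, limma adjusted p = 0.694). It was -0.56 ± 0.81 as deposited (SD, n = 3; interval -1.08 to -0.04, limma adjusted p = 0.322). The turned value was the lowest mean of all 1030 clones and the as deposited value the 12th lowest. Both changed in size with the spot used. With the first spots of all clones alone the means were -1.09 and -0.98, and with the other spots alone -0.10 and -0.15, in the same order of readings. Without array 2 they were -0.13 and -0.10. Without array 1 the gene had 2 values, of opposite dye orientation, and passed in both readings (means -0.76 and -0.73, limma adjusted p = 0.0285 and 0.0144). Across all alternatives tried, the adjusted p ran up to 0.99972 turned and 0.893 as deposited.

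CG8778 (NCBI gene 36392) encodes a protein of the enoyl-CoA hydratase family, whose members add water to unsaturated acyl-CoA. It had 0.19 on array 1, -0.04 on array 3 and -0.11 on array 4. These lie close to 0 on either side as deposited, and all above 0 once arrays 3 and 4 are turned. The mean was 0.11 ± 0.08 with the swap arrays turned (interval -0.21 to 0.44) and 0.02 ± 0.16 as deposited (interval -0.30 to 0.33), SD over n = 3 in each. The limma adjusted p was 0.885 and 0.980. These intervals hold changes of up to 1.36-fold higher turned and 1.26-fold as deposited.

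FASN1 (NCBI gene 33524) encodes fatty acid synthase, which assembles long-chain fatty acids from malonyl-CoA. It had 0.42 and 0.28 on arrays 1 and 2, and 0.02 and 0.01 on arrays 3 and 4. The arrays with NaVP in Cy5 were high and the swap arrays were near 0. Because the swap arrays were near 0, both readings gave nearly the same mean. It was 0.17 ± 0.22 turned (interval -0.13 to 0.46, limma adjusted p = 0.796) and 0.18 ± 0.20 as deposited (interval -0.09 to 0.45, limma adjusted p = 0.539), SD over n = 4. Without array 1 the FASN1 means were 0.082 turned and 0.10 as deposited.

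The block of spots that holds FASN1 lay above the array median on every array, by 0.16, 0.13, 0.19 and 0.11. Centred on that block, FASN1 had 0.25, 0.15, -0.17 and -0.10 on arrays 1 to 4, so that with the swap arrays turned all 4 lay above 0. The turned mean was then 0.17 ± 0.06 (SD, n = 4; limma adjusted p = 0.705). The as deposited mean dropped to 0.03 ± 0.20 (SD, n = 4; limma adjusted p = 0.916). The sign pattern of FASN1 thus differed between array and block centring, and its mean passed the test under neither.

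AcCoAS (NCBI gene 40348) encodes acetyl-CoA synthetase, which joins acetate to coenzyme A. It had 0.27, 0.27 and 0.24 on arrays 1, 2 and 3 but -0.63 on array 4. Array 4 stood apart, with its spots at -0.72 and -0.54. The mean was 0.23 ± 0.36 with the swap arrays turned (interval -0.11 to 0.57, limma adjusted p = 0.749). Left as deposited it was 0.04 ± 0.45 (interval -0.30 to 0.38, limma adjusted p = 0.948), SD over n = 4 in each. Without array 4 these means were 0.10 turned and 0.26 as deposited. The swap arrays disagreed in sign, so neither reading puts all 4 arrays on one side.

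**Figure D2:**
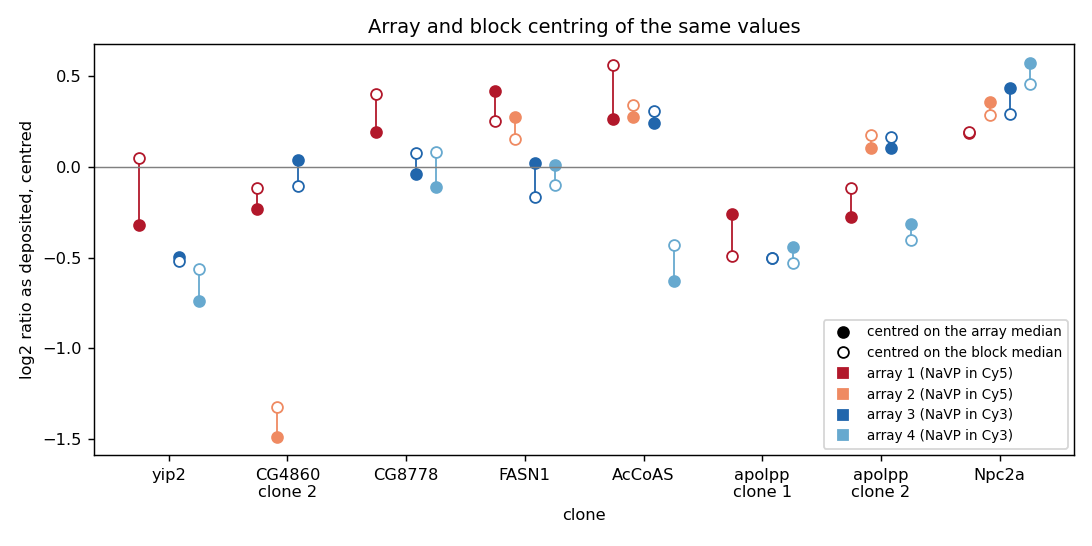
The same log2 ratios as deposited (y axis) for each lipid gene clone (x axis), centred on the array median (filled points) or on the median of the clone's block of spots (open points). Block centring moved yip2 on array 1 from -0.32 to 0.05 and drew the 3 values of apolpp clone 1 together (-0.49, -0.50 and -0.53).

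apolpp (NCBI gene 43827) encodes the precursor of apolipophorins I and II, the core proteins of lipophorin, which carries lipids in the blood. It is made mainly in the fat body. Clone 1 had -0.26, -0.50 and -0.44 on arrays 1, 3 and 4, with none on array 2. Clone 2 had -0.27, 0.11, 0.10 and -0.32 on arrays 1 to 4. The clones agreed on array 1 and differed on array 3, where clone 1 was lower by a log2 difference of -0.61.

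For apolpp clone 1 the mean as deposited was -0.40 ± 0.13 (SD, n = 3; interval -0.71 to -0.09, limma adjusted p = 0.244). All 3 arrays lay below 0. For clone 2 it was -0.10 ± 0.23 (SD, n = 4; interval -0.37 to 0.18, limma adjusted p = 0.775). Turned, the means were 0.23 ± 0.42 for clone 1 (SD, n = 3; limma adjusted p = 0.796) and 0.01 ± 0.26 for clone 2 (SD, n = 4; limma adjusted p = 0.994). The turned mean of clone 1 was 0.47 without array 1, 0.091 without array 3 and 0.12 without array 4. Averaged over both clones, the gene had a mean of 0.10 ± 0.27 turned and -0.18 ± 0.21 as deposited (SD, n = 4; limma adjusted p = 0.905 and 0.540). Block centring drew clone 1 to -0.51 ± 0.02 as deposited (SD, n = 3), and its limma adjusted p of 0.0553 missed the threshold. The medians of that block came from 36, 16 and 23 clones on arrays 1, 3 and 4, and their own error is not in this SD.

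Among fat body markers, 8 of 12 are on the array and Obp99b alone had any value. It had -0.40, -0.94 and -1.03 on arrays 1, 3 and 4, all below 0 as for apolpp clone 1 and yip2. In contrast, apolpp clone 2 lay above 0 on arrays 2 and 3 (0.11 and 0.10). The mean of Obp99b as deposited was -0.79 ± 0.34 (SD, n = 3; limma adjusted p = 0.0483). Turned it was 0.52 ± 0.80 (SD, n = 3; limma adjusted p = 0.728), the opposite sign. Other odorant-binding protein genes went either way as deposited. The Obp56h clones lay below 0 and the Obp56d clones above 0 in each dye orientation. The part of fat body content in the apolpp values was not tested.

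Npc2a (NCBI gene 33374) encodes a small secreted protein that binds sterols and, with NPC1, moves them out of lysosomes. It had 0.19, 0.36, 0.44 and 0.57 on arrays 1 to 4. All 4 arrays lay above 0 as deposited. The mean as deposited was 0.39 ± 0.16 (SD, n = 4), a 1.31-fold higher level in NaVP heads with an interval of 0.12 to 0.65 (limma adjusted p = 0.190). It was the 46th highest mean of 1030.

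With the dye coefficient the as deposited mean of Npc2a was the same 0.39 and passed as higher (interval 0.15 to 0.63, limma adjusted p = 0.0343). With the swap arrays turned, arrays 3 and 4 opposed arrays 1 and 2, and the mean was -0.12 ± 0.46 (SD, n = 4; interval -0.49 to 0.26, limma adjusted p = 0.910). On array 3 the spots were at 0.76 and 0.12. The as deposited mean was 0.42 with the first spots of all clones and 0.34 with the others. Its block lay above the array median on arrays 2, 3 and 4 by 0.07, 0.15 and 0.12. After block centring all 4 arrays were above 0 and averaged 0.31 ± 0.11 (SD over n = 4; limma adjusted p = 0.230).

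**Figure D3:**
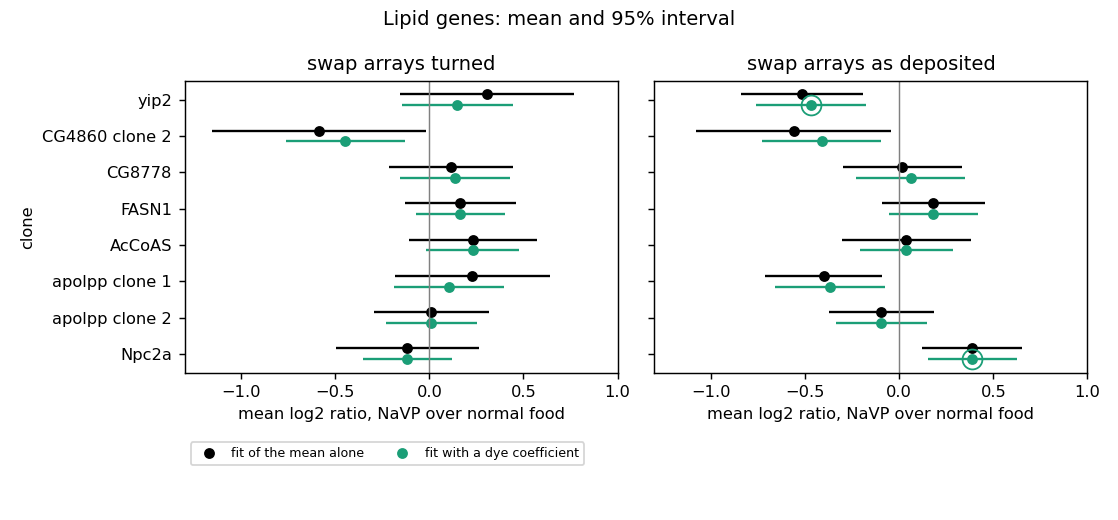
Mean log2 ratio of NaVP over NF (x axis) with its 95% limma interval for each lipid gene clone (y axis), for the swap arrays turned (left) and as deposited (right). Black is the fit of the mean alone and green the fit with a dye coefficient. Rings mark an adjusted p under 0.05, which yip2 (-0.47) and Npc2a (0.39) reached as deposited with the dye coefficient.

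The number of lipid genes that kept 1 sign was set beside that of all clones. With the swap arrays turned, 2 of 4 lipid clones on 3 arrays had 1 sign throughout, CG8778 above 0 and CG4860 below 0, where 28.1% of all such clones did. Of the 4 lipid clones on all 4 arrays, 0 did, where 17.4% of all such clones did. As deposited, yip2 and apolpp clone 1 stayed below 0, 2 of 4, against 34.0% of all clones on 3 arrays. FASN1 and Npc2a stayed above 0, 2 of 4, against 26.3% of all clones on 4 arrays. On arrays 3 and 4 FASN1 was at only 0.02 and 0.01, and block centring put both below 0. All these sign counts are over very few clones.

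The lipid clones had means on both sides of 0 in each reading. In the turned reading 6 of 8 had a mean above 0, where 47.6% of all clones did, and their median was 0.14, beside a median of -0.01 over all 1030 clones. As deposited, 4 of 8 were above 0, where 60% of all clones were, and the median was -0.04, beside 0.05 over all clones. On single arrays as deposited, 4 of 8, 4 of 5, 5 of 8 and 2 of 7 listed lipid clones lay above 0 on arrays 1 to 4. Their medians were -0.02, 0.27, 0.03 and -0.32, beside 0.065, 0.065, 0.067 and 0.048 for all tested clones. On each array 0 thus lay below the middle of all tested clones.

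**Figure D4:**
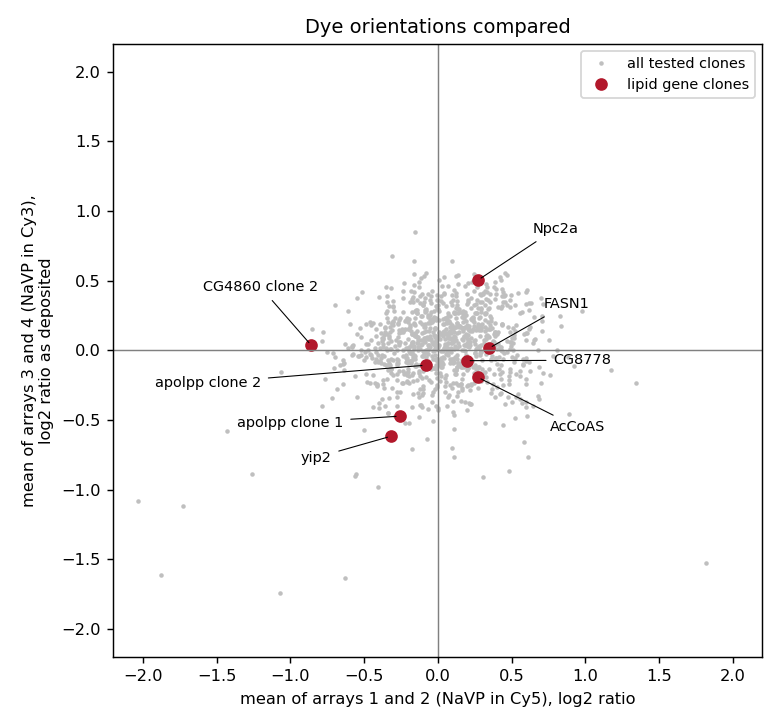
Mean of arrays 1 and 2 (x axis) against mean of arrays 3 and 4 as deposited (y axis), in centred log2 ratios, for 1030 clones (grey) and the 8 lipid gene clones (red). For the 577 clones on 3 arrays, 1 of the coordinates is a single array, as for yip2, whose x value is array 1 alone. A gene that is higher in NaVP heads under the as deposited reading lies top right, where Npc2a stands (0.27 and 0.51), and one that is lower lies bottom left, with yip2 (-0.32 and -0.62). Under the turned reading the corresponding corners are bottom right and top left.

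Other genes of these pathways were counted from lists of 180 genes, of which 119 are on the array, 53 had any value and 13 reached 3 arrays. Beside the 7 genes above these 13 hold 6, with 1 tested clone each. They are CG3961, an acyl-CoA synthetase gene, and Npc2b and LpR2, a relative of Npc2a and a lipophorin receptor. The others are Agpat3 of glycerolipid synthesis, Hnf4, a nuclear receptor that in flies controls fat breakdown, and CG17896, a dehydrogenase gene of valine breakdown. Without a dye term, 0 of the 6 passed in either reading (smallest limma adjusted p = 0.565 turned and 0.393 as deposited), beside 0.0971% and 0.777% of all clones. At an unadjusted p under 0.05 the count was 1 turned (CG17896), beside 6.89% of all clones, and 0 as deposited, beside 14.1%.

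CG17896 had 0.68 and 0.38 on arrays 1 and 2, and -0.51 and -0.16 on arrays 3 and 4. Each pair of one dye orientation lay on its own side of 0. Its mean was 0.43 ± 0.22 with the swap arrays turned (SD, n = 4; limma adjusted p = 0.565), and with the dye coefficient it passed as higher in NaVP heads (limma adjusted p = 0.0300), as 3.11% of all clones passed in one direction or the other. As deposited the mean was 0.10 ± 0.53 (SD, n = 4; limma adjusted p = 0.837).

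Npc2b had 0.23, 0.53, -0.02 and 0.26 on arrays 1 to 4, and its mean as deposited was 0.25 ± 0.23 (SD, n = 4; limma adjusted p = 0.393). Like Npc2a it lay above 0 on arrays 1, 2 and 4 as deposited. Turned, the Npc2b mean was 0.13 ± 0.33 (SD, n = 4; limma adjusted p = 0.874), opposite in sign to that of Npc2a (-0.12). LpR2 had 0.19, 0.12 and 0.30 on arrays 1, 3 and 4, all above 0 as deposited, and averaged 0.21 ± 0.09 (SD over n = 3; limma adjusted p = 0.539). Turned, the LpR2 mean was -0.08 ± 0.25 (SD over n = 3; limma adjusted p = 0.944). Another LpR2 clone, listed on array 4 alone, had -0.51 there, opposite to the tested clone, and its spots differed by 1.21. The lipid and sterol carriage list had 5 tested clones of 4 genes, of which 0 passed and 3 were above 0 in each reading. Their median was 0.01 turned, beside -0.01 over all clones, and 0.21 as deposited, beside 0.05.

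The fatty acid synthesis list also holds AcCoAS, named above under acyl activation. The 2 tested clones of that list were those of FASN1 and AcCoAS, with medians of 0.20 turned and 0.11 as deposited. In beta-oxidation the 3 were those of yip2, CG8778 and CG4860, with medians of 0.11 and -0.52. CG3961 had a mean of 0.09 ± 0.25 turned and -0.07 ± 0.26 as deposited (SD, n = 3). The means of Agpat3 were 0.17 ± 0.15 and 0.01 ± 0.26 (SD, n = 3), and those of Hnf4 -0.06 ± 0.26 and 0.07 ± 0.26 (SD, n = 4), in the same order. Of the carnitine shuttle, which carries acyl groups into mitochondria, 0 of 7 genes reached 3 arrays.

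**Figure D5:**
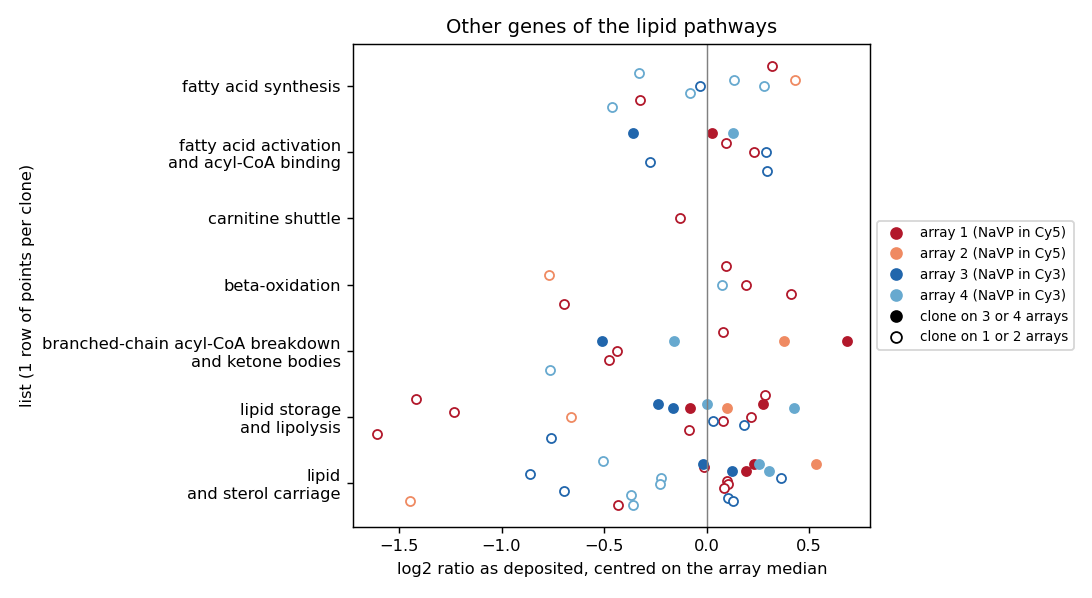
Centred log2 ratio as deposited (x axis) of every listed clone of the other pathway genes, by list (y axis), coloured by array. Filled points are clones on 3 or 4 arrays and open points clones on 1 or 2. The filled points of CG17896 split by dye orientation (0.68 and 0.38 against -0.51 and -0.16), and the lowest open points (-1.61, -1.45 and -1.42) come from clones on 1 or 2 arrays.

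The filter of 3 arrays set which genes are described. Just inside it lie yip2, CG4860, CG8778 and apolpp clone 1. Just outside, on 2 arrays, were 10 pathway clones, of which 4 lay above 0 on both arrays as deposited, 1 below 0 on both and 5 on either side. Above 0 on both was anox, an acyl-CoA binding protein gene, with 0.23 on array 1 and 0.29 on array 3. ScpX, a peroxisomal thiolase and sterol carrier gene, had 0.19 on array 1 and 0.08 on array 4. SREBP, which switches on fatty acid synthesis genes, had 0.43 on array 2 and 0.14 on array 4. The other one above 0 was Agpat2, of glycerolipid synthesis, with 0.079 on array 1 and 0.03 on array 3. Below 0 on both was emp, a gene of the CD36 scavenger receptor family, with -0.43 on array 1 and -0.36 on array 4. Among the 5 that split, the lipophorin receptor gene LpR1 had 0.10 on array 1 and -0.23 on array 4, and crq, also of the CD36 family, had 0.36 on array 3 and -0.22 on array 4. CG5966, a lipase gene, had 0.21 on array 1 and -0.66 on array 2. CG16904, a gene of fatty acid elongation, had -0.03 on array 3 and 0.28 on array 4, and Start1, with a START lipid-binding domain, had -1.45 on array 2 and 0.13 on array 3. With the swap arrays turned, anox, ScpX, SREBP, Agpat2 and emp split instead. LpR1 then lay above 0 on both arrays and Start1 below 0, and crq, CG5966 and CG16904 still split. The share of all clones on 2 arrays that kept 1 sign was not counted.

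For each lipid clone the named clones with the most similar values were found by the root mean square difference over the arrays that list it. For yip2 they were CG16926 and CG3301 (0.077 and 0.16 over 3 arrays, among 496 clones with a median of 0.63). For Npc2a they were trpl, a channel gene of the photoreceptor light response, and Not3 (0.10 and 0.14 over 4 arrays, among 223 clones with a median of 0.46). FASN1 had ringer and CG15096 (0.073 and 0.076), AcCoAS had UGP and lcs (0.16 and 0.17), and apolpp clone 2 had JhI-21 and Obp56g (0.14 and 0.17), over 4 arrays.

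Over 3 arrays, apolpp clone 1 was closest to ben and Galphas (0.12 and 0.14) and CG8778 to alpha-Est3 and CG14767 (0.058 and 0.061). For CG4860 they were RpS15Ab and Zyx (0.27 and 0.33, among 228 clones with a median of 0.94). None of these matches lay in the same block of spots as its lipid gene.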

How the data were processed

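Slide images were read in GenePix Pro 6.0 and the ratios normalised in Acuity 4.0 without dim spots, per the series' design text. RNA had been amplified as labelled cRNA. Spots were kept with under 3% saturated pixels, no bad flag, R2 of 0.6 or more and signal over noise of 3 or more. The deposited values are log ratios per spot, taken as log2 from their range and the scanner software's convention. The table used here holds ratios without spot brightness, and the number of arrays limits the precision.

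Adjacent spots share a clone (all 7609 pairs with both spots annotated share their gene) and were averaged. Genes were named from the platform's old annotation, updated by NCBI gene ID (546 of the 554 tested clones with 1 symbol) or synonym to the RefSeq table of assembly Release 6. Each array was centred on its median. Clones on at least 3 arrays were tested two-sided with lmFit and eBayes of limma 3.58.1 (R 4.3.3), with an intercept as the only term and Benjamini-Hochberg adjustment, checked on simulated data. Intervals are limma's at 95%. Block positions follow from the spot numbers (48 equal blocks), which the labels do not state. For the lipid clones a block median rested on 8 listed clones (AcCoAS on array 2) to 107 (CG4860 on array 3).

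Alternatives were no centring, block centring, scaling, other filters on arrays and on discordant spots, a dye coefficient, gene averages, a SAM statistic (its added constant the median standard error) and each array left out. Use of 1 spot per clone was added after the data were seen. Named were all clones of the 7 genes, tested genes of the pathway lists, and for each tested lipid clone the 2 closest clones. Some cell type markers on 3 or more arrays are named as checks of the tissue. Obp56h and pathway genes on 1 or 2 arrays were named after their values were seen. The members and lists were chosen with earlier results of these data known. Coordinates and sequences of the clones were not used here.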

Additional observations from a re-analysis of the deposited data

Results flagged for a closer look

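AcCoAS stood out for 1 array. As deposited, array 4 had -0.63 where the other 3 arrays had 0.24 to 0.27, and the gap to the nearest array took up 0.968 of the whole range, past Dixon's 95% critical value for 4 samples. Both spots of the clone were low on array 4 (-0.72 and -0.54). The lipid and pathway clones on all 4 arrays gave 14 such groups over both readings, and chance alone picks out about 1 in 20. The gap was taken on values centred on the array median. Centred on its block of spots, AcCoAS had 0.56, 0.34, 0.31 and -0.43 on arrays 1 to 4 as deposited. Array 4 was still the lowest, but the other 3 arrays lay further apart than before. Dixon's test was not repeated on the block-centred values, so the flag holds for array centring only.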

How the results depend on the processing

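No paired analysis was possible because each array already sets 1 NaVP pool against 1 NF pool and gives a single ratio. Over the 8 lipid clones in both readings, 201 of 226 alternative values kept their direction and their side of the threshold, 8 newly passed in the same direction, 17 reversed and 0 lost a call. Of the reversed values, apolpp clone 2 with no centring also passed, so 9 values newly passed in all. With no centring, which leaves the array medians in the values, 5 of 8 lipid clones passed as deposited, where 745 of all 1030 clones did. As deposited, yip2 was then at 0.081, CG4860 at 0.30, apolpp clone 1 at 0.20 and apolpp clone 2 at 0.61, and turned Npc2a was at 0.20. Leaving out arrays gave 0 to 1 lipid clones past the threshold (CG4860 without array 1), and the dye coefficient gave 2.

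Several means near 0 changed sign. Turned, the second spots alone put apolpp clone 2 at -0.065 and Npc2a at 0.0044, and leaving out arrays gave -0.090 to 0.11 and -0.27 to 0.036 for these clones. As deposited, CG8778 was at -0.0069 without discordant spots and -0.012 with the second spots alone, and ran from -0.074 to 0.079 with arrays left out. AcCoAS was at -0.018 with the first spots and ran from -0.040 to 0.26 with arrays left out. The cause was not tested.

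Over all clones, 1 passed limma turned. The count was 0 with no centring, 2 with block centring, 0 on at least 2 arrays, 0 on all 4 arrays, 5 with genes averaged, 32 with the dye coefficient, 2 by SAM and 1 to 12 with an array left out (12 without array 1, 6 without array 2). At an unadjusted p under 0.05 it was 6 with no centring, 96 on at least 2 arrays and 46 on all 4. As deposited 8 passed: 745 with no centring, 19 with block centring, 24 on at least 2 arrays, 1 on all 4 arrays, 4 without discordant spots, 59 with the dye coefficient, 2 by SAM and 3 to 19 with an array left out (19 without array 1, 3 without array 3, 5 without array 4). CG4860 could not be tested without discordant spots, since 2 values were left.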

Other observations

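Some storage and carriage genes had a value on 1 array only, and it lay far below 0 as deposited. On array 1, AkhR, the receptor of the fat-mobilising adipokinetic hormone, was at -1.61, mag, a lipase gene, at -1.42 and Lsd-1, a lipid droplet coat gene, at -1.23. The spots of AkhR and mag differed by 0.863 and 1.24, those of Lsd-1 by 0.223. On array 3, Mtp, which loads lipid onto lipophorin, was at -0.86, and Dgat2, of triglyceride synthesis, at -0.76. These genes were chosen after their values were seen, and no test was made of single arrays. With the swap arrays turned, AkhR, mag and Lsd-1 stay below 0, while Mtp and Dgat2 lie above 0. Other clones of these lists on 1 array lay on either side of 0, from vib (-0.695 on array 3) to Gpat4 (0.28 on array 1). Low values on 1 array were not particular to storage and carriage. Clones of the other lists on 1 array ran from Acox57D-p (-0.77 on array 2) to CG4594 (0.41 on array 1), both of beta-oxidation. Hibch, of branched-chain acyl-CoA breakdown, was at -0.76 on array 4. The share of all clones with values this low was not counted.

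Of the carnitine shuttle, CROT alone had a value, -0.13 on array 1.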
